A study of Mus musculus with 5 samples.

Results

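The genes described here are 8 genes that are recurrently altered in human pancreatic ductal adenocarcinoma (PDAC): the Ras genes Nras and Hras and the tumour suppressor genes Smad4, Stk11, Arid1a, Smarca4, Brca2 and Kdm6a. They were chosen by name for that role, with the p53 gene and Cdkn2a left out. Each was represented by the probe set annotated with its symbol alone. Of the 8 genes, 7 had such a probe set, 1 for each gene, and Hras had none in the annotation used, so Hras was not analysed here. In all, 19938 genes were tested.

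RNA from 5 cultures of mouse pancreatic cells was measured on whole-transcript arrays, as log2 signals per probe set. All titles name floxed p53 alleles, written p53L/L, so the controls carried these too. All but that of normal ductal replicate 2 also name the Pdx-1Cre transgene, which drives Cre recombinase from a promoter active in the pancreatic lineage. The normal ductal group (n = 2, also called the duct cultures here) had no other allele named. The PDAC group (n = 3, also called the tumour cultures) also had 1 floxed Apc allele (APCL/+). No age is given, and the labels name no engineered Ras allele. The title of normal ductal replicate 2 reads Pdx-1 without Cre and omits the word ductal, so the labels do not settle whether that culture carried Cre. The title of PDAC replicate 3 adds the words mutant cell. The labels speak of biological replicates but name no animals, so each p-value measures the spread among 5 cultures and nothing beyond it. The small number of arrays limits the precision.

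In background, Ras proteins are small GTPases at the inner face of the plasma membrane that pass growth factor signals to Raf kinases, phosphoinositide 3-kinase and Ral exchange factors. Smad4 is the common partner of receptor-activated Smads and carries TGF-beta and BMP signals to the nucleus. Stk11 encodes Lkb1, a kinase that activates AMPK and its relatives. Arid1a and Smarca4 are the DNA-binding and the ATPase subunit of SWI/SNF complexes, which move nucleosomes. Brca2 works in the repair of broken DNA by homologous recombination, and Kdm6a (also called Utx) removes repressive methyl groups from histones.

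Cell type markers were compared first, because cultures can hold other cells. The 12 epithelial markers had means of 10.73 and 10.51 in the duct cultures against 6.37, 7.16 and 8.77 in the tumour cultures, in replicate order. The 7 measured duct markers had means of 9.21 to 9.51 against 6.33 to 8.59. Normal ductal replicate 2 stood apart in markers of other cells: the 12 fibroblast markers averaged 9.91 there and 7.35 in replicate 1 (9.34 to 9.65 in PDAC), and the acinar, islet and endothelial lists averaged 7.35, 8.22 and 6.93 there against 5.59, 6.18 and 5.69. Within the acinar list, Ctrb1 (12.26 against 6.08), Cpa1 (10.12 against 5.54) and Cela1 (7.28 against 6.05) rose most in replicate 2. Cela2a and Rbpjl rose little. The acinar factors Ptf1a (4.71 in both) and Bhlha15 (4.94 against 4.99) did not rise. The leukocyte list stood at 5.21 and 5.71 in duct cultures against 4.92 to 4.96. The 7 driver genes differed by 0.03 to 0.21 between these 2 normal ductal cultures. Of the 9969 genes with a mean above the median of all genes, only 4.60% differed by more than 1, so the drivers do not stand out from most genes at that threshold. The signal of Apc, the gene floxed in PDAC, was 9.23 and 9.02 in duct cultures against 9.001, 9.06 and 8.58 in tumour cultures. No source used here tells which exons its probes cover, so it does not check the genotype. The p53 gene was not analysed here.

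The comparison of PDAC with normal ductal cultures asked whether the transcripts of these drivers differ between tumour cells and duct cells. No driver gene passed the test. Estimated differences were small, from -0.31 for Kdm6a to 0.09 for Stk11 on the log2 scale, with a median of -0.11 against 0.01 over all genes. By limma's moderated test with Benjamini-Hochberg adjustment over all genes, 0 of the 7 were called, where 0.0552% of all genes were (11 in number), and adjusted p ran from 0.347 to 1. At an unadjusted p under 0.05 the count was 1 of 7, Kdm6a, against 13.4% of all genes (6.86% lower and 6.5% higher in PDAC). In 2 of the 7, Smad4 and Kdm6a, every PDAC culture lay below both normal ductal cultures, where 26.4% of all genes had groups that did not overlap (12.8% lower, 13.6% higher) and 40.1% of genes with a mean above the median did. Counts of 1 and 2 among 7 genes lie near or below these backgrounds.

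**Figure D1:**
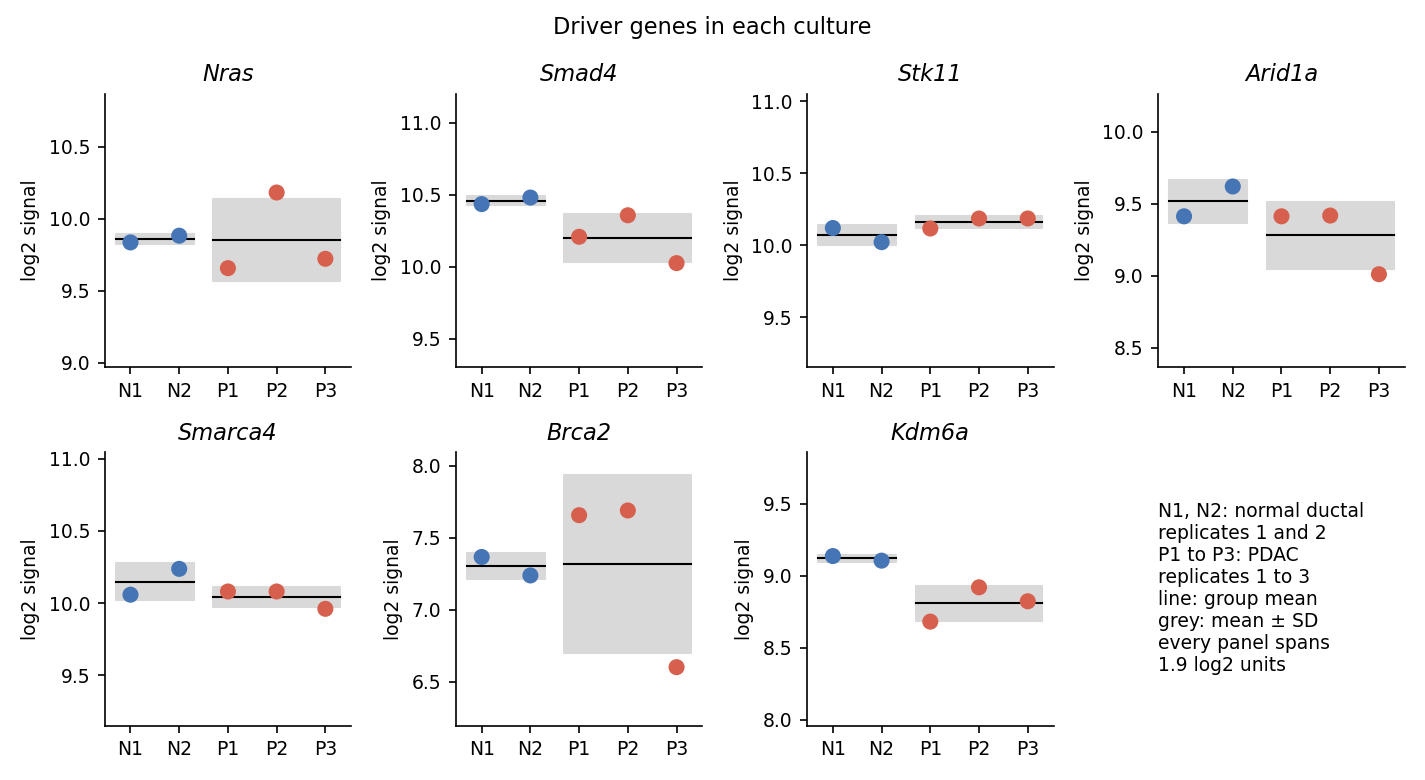
Log2 signal of each driver gene (y axis; every panel spans the same height) in normal ductal replicates 1 and 2 (N1, N2) and PDAC replicates 1 to 3 (P1 to P3), with the group mean as a line and mean ± SD in grey. Stk11 and Smarca4 hardly move, Brca2 ranges over 1.09 among PDAC cultures, and only Smad4 and Kdm6a have groups that do not overlap.

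Most of these genes were among the steadier genes of the arrays. The range over the 5 arrays was below 0.69, the median range of genes with a mean above the median, for 6 of the 7. It was 0.16 for Stk11, a range smaller than that of all but 3.71% of those genes, and 1.09 for Brca2, a range larger than that of 75.0% of them. The 95% interval of the group difference lay within 1 log2 unit of 0 for 6 of the 7, Brca2 being the exception. Some deposited values were tied between arrays. Arid1a was at 9.4119 in both normal ductal replicate 1 and PDAC replicate 1, and Smarca4 at 10.08 in both PDAC replicates 1 and 2. Over all genes, 721 had the same value in all 5 arrays. Ties of this kind make ranges and SDs smaller, and their origin was not tested. PDAC replicate 3 was the lowest array for 4 of the 7 genes (Smad4, Arid1a, Smarca4 and Brca2). The share of all genes that were lowest in that array was not counted, so this count has no background. Its median difference from the normal ductal mean was 0.01 over 9680 autosomal genes with a mean above the median. The same array had the lowest mean in the Ras, Smad, Lkb1 and histone methylation lists described below. In the Smad list it was 8.49, against 8.77 to 8.86 in the other arrays. It was not the lowest in the SWI/SNF and homologous recombination lists. Among PDAC cultures, replicate 3 also had the highest mean of epithelial markers. The part of these markers in the levels of the driver genes was not tested.

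Nras, on chromosome 3 from 103058285 to 103067914 (GRCm38), was the Ras gene measured. Its log2 signal was 9.84 and 9.88 in duct cultures against 9.66, 10.18 and 9.72 in tumour cultures. PDAC replicate 2 lay above every other array, the other PDAC replicates lay below both normal ductal cultures, and the groups overlapped. The difference in means was -0.01 (SE 0.20, 95% interval -0.56 to 0.55, limma adjusted p = 1), and its sign turned when arrays were set to a common median (0.09).

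Other genes of chromosome 3 were also high in PDAC replicate 2. In that culture Nras was 0.32 above the normal ductal mean, and the median over 485 chromosome 3 genes with a mean above the median was 0.48, the highest of 20 chromosomes. Of those 485 genes, 402 (82.9%) were above the normal ductal mean, against 58.7% of 9680 such autosomal genes, whose median was 0.08. The share was 79.9% on chromosome 15. Of the 30 such genes nearest to Nras, 23 were above the normal ductal mean, with a median of 0.40. The 10 measured genes next to Nras were all above the normal ductal mean, but 6 of them had a mean below the median of all genes. Trim33, a ubiquitin ligase of the Smad pathway that lies among them, was 0.31 higher. In PDAC replicates 1 and 3 the chromosome 3 median was 0.13 and -0.02, and Nras was -0.20 and -0.14. The Nras value of PDAC replicate 2 was 0.35 and 0.30 when set against normal ductal replicate 1 or 2 alone, with chromosome medians of 0.49 and 0.46. No copy number was measured.

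**Figure D2:**
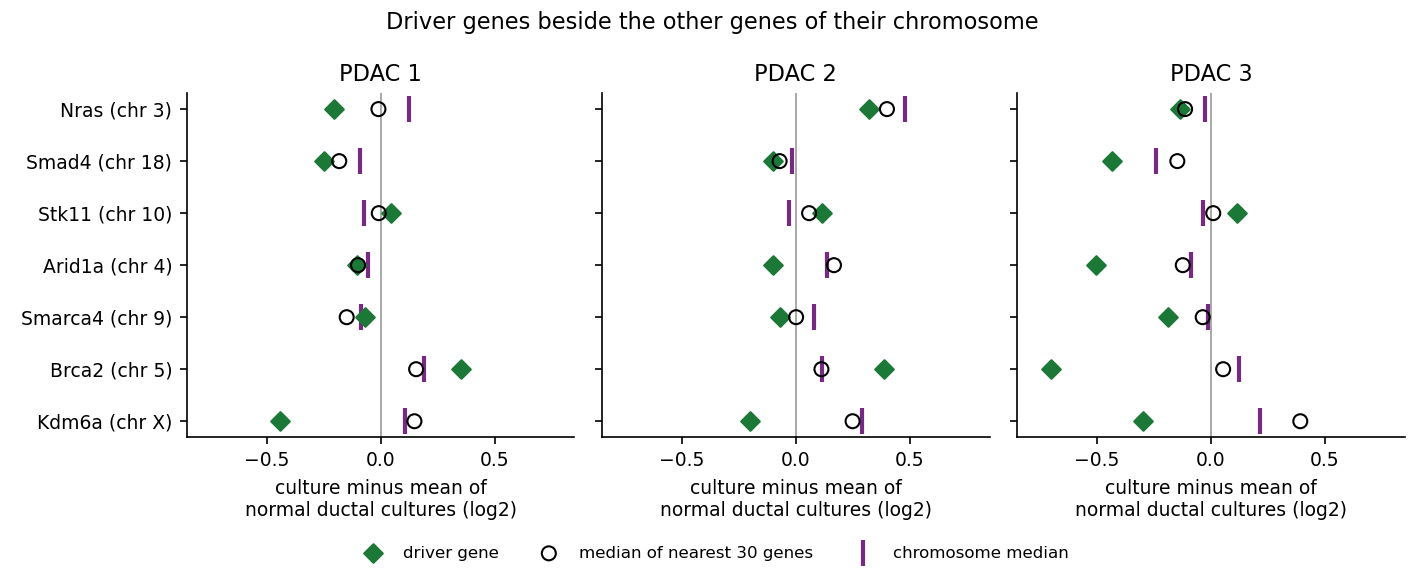
For each PDAC culture (panels), the difference from the mean of the normal ductal cultures in log2 units (x axis) for each driver gene (diamond), for the median of the nearest 30 genes with a mean above the median (circle) and for the median of its chromosome (bar). In PDAC 2 Nras (0.32) lies near its chromosome median (0.48), while Kdm6a lies below a raised X chromosome median in all 3 panels and Brca2 (-0.70) stands away from chromosome 5 (0.12) in PDAC 3.

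Genes that load, unload and anchor Ras stayed close to 0 as a group. Of 21 measured genes (exchange factors, GTPase activators, adaptors and lipid-modifying enzymes), 0 were called over all genes, 1 reached an unadjusted p under 0.05, on the lower side, and the median difference was -0.03. The share at that threshold was 4.76%, against 20.1% of genes with a mean above the median. The 1 gene was Dab2ip, a GTPase activator that turns Ras off, at 8.68 and 8.69 in duct cultures against 8.22, 8.10 and 8.29 in tumour cultures (-0.48, SE 0.09, limma adjusted p = 0.208). The exchange factor gene Rasgrp3 had 0.99 (SE 0.39, adjusted p = 0.419), and Fnta, a subunit of farnesyltransferase, 0.39 (SE 0.15, adjusted p = 0.421). The count of 1 became 2 without either duct culture and 3 without PDAC replicate 2 or 3.

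Of 23 measured relatives and effectors of Ras, 0 were called, 5 reached an unadjusted p under 0.05, all of them lower, with a median of -0.01. That is 21.7% of the list, against 20.1% of genes with a mean above the median. Rras, an R-Ras GTPase that regulates adhesion, was at 11.88 and 11.76 in duct cultures against 10.93, 10.95 and 11.05 in tumour cultures, so the groups stood apart (-0.84, SE 0.07, limma adjusted p = 0.119). Ralb, a GTPase downstream of Ras, was at 10.76 and 10.43 against 9.19, 9.29 and 9.17 (-1.38, SE 0.13, adjusted p = 0.140). Rap1b, an adhesion GTPase of the same superfamily, had -0.48 (SE 0.09, adjusted p = 0.211). The remaining 2 were Rras2 and Rassf5, named after their values were seen. Without normal ductal replicate 2 the count was 3.

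Smad4, on chromosome 18 from 73634790 to 73703791, had log2 signals of 10.43 and 10.48 in duct cultures against 10.21, 10.36 and 10.02 in tumour cultures. Every PDAC culture lay below both normal ductal cultures, with replicate 3 the lowest. The difference was -0.26 (SE 0.12, 95% interval -0.60 to 0.08, limma adjusted p = 0.501), a ratio of 0.835, and did not pass. It was -0.17 both without PDAC replicate 3 and with arrays at a common median. In PDAC replicate 3 Smad4 was 0.43 below the normal ductal mean. The median of 250 genes of its chromosome was -0.24 there, and that of the nearest 30 genes -0.15. Apc, on the same chromosome, was 0.55 lower in that culture.

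The genes around Smad4 in its pathway lay on both sides of 0. Of 24 measured receptors, Smads and regulators, 0 were called, 1 higher and 6 lower reached an unadjusted p under 0.05, and 3 and 8 had groups that did not overlap, with a median of -0.08. The shares were 29.2% at that threshold and 45.8% without overlap, against 20.1% and 40.1% of genes with a mean above the median. Smurf1, a ubiquitin ligase for Smads and receptors, was at 10.75 and 10.52 in duct cultures against 9.78, 9.90 and 9.60 in tumour cultures (-0.88, SE 0.14, limma adjusted p = 0.177). Tgif1, a co-repressor that binds Smads, had -0.72 (SE 0.12, adjusted p = 0.184), and Acvr1b, an activin receptor itself altered in human PDAC, -0.87 (SE 0.18, adjusted p = 0.218). Skil, Tgfbr1 and Acvr1 were the other lower genes. Tgfbr3, a co-receptor, was the higher one, at 9.42, 9.03 and 8.24 in PDAC against 5.76 in the first duct culture and 7.53 in the second, the one with high fibroblast markers. These 4 were named after their values were seen. Without normal ductal replicate 1 or 2 the count at that threshold was 4 in each case, as it was without PDAC replicate 2.

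**Figure D3:**
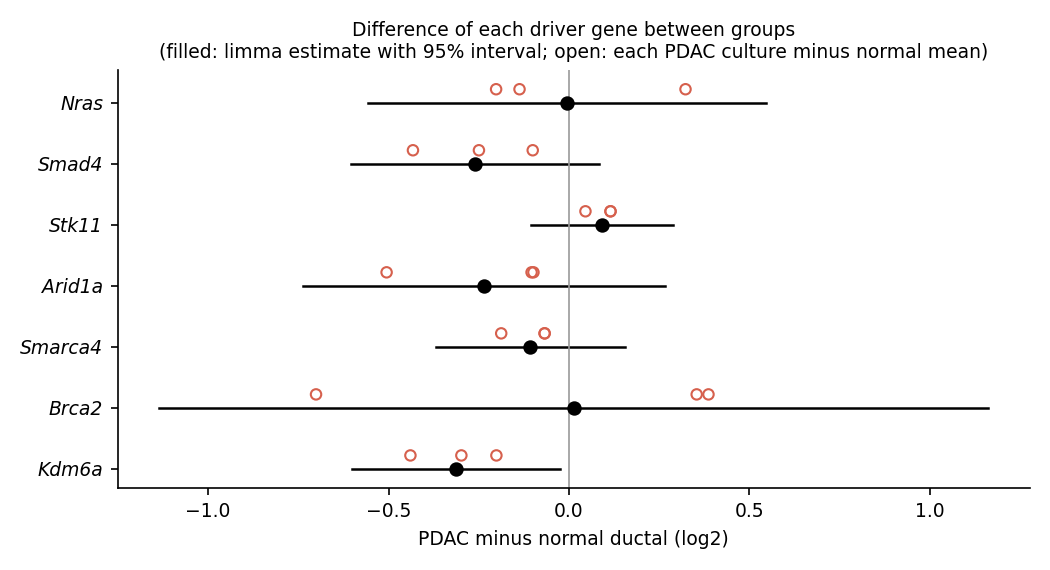
Difference between PDAC and normal ductal means for each driver gene in log2 units (x axis), as the limma estimate with its 95% interval (filled point and line), and each PDAC culture minus the normal ductal mean (open points). Of the 7 intervals only that of Kdm6a, -0.60 to -0.02, leaves out 0, before adjustment over all genes, and that of Brca2 is the widest.

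Stk11, on chromosome 10 from 80115767 to 80130679, was the steadiest driver. Its signal was 10.12 and 10.02 in duct cultures against 10.12, 10.19 and 10.19 in tumour cultures, and the groups overlapped. The difference was 0.09 (SE 0.07, 95% interval -0.10 to 0.29, limma adjusted p = 0.573). It was 0.14 without normal ductal replicate 1, 0.043 without normal ductal replicate 2 and 0.19 with arrays at a common median.

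Genes of the Lkb1 complex, and of the kinases downstream with their partners and targets, also lay on both sides of 0. Of 27 measured genes, 0 were called, and 3 higher and 4 lower reached an unadjusted p under 0.05, with a median of 0.02. Both catalytic subunits of AMPK were among them, on opposite sides. The share of the list at that threshold was 25.9%, against 20.1% of genes with a mean above the median. Prkaa2 was at 8.54 and 8.84 in duct cultures against 5.79, 6.53 and 5.32 in tumour cultures (-2.81, SE 0.41, limma adjusted p = 0.171). Prkaa1, named after its values were seen, was at 9.88 and 10.08 against 10.60, 10.42 and 10.39 (0.49, SE 0.11, adjusted p = 0.244). Cab39, the scaffold Mo25 that holds Lkb1 active, had -0.49 (SE 0.10, adjusted p = 0.218), and Crtc1, a coactivator that salt-inducible kinases keep out of the nucleus, 0.78 (SE 0.13, adjusted p = 0.193). The other 3 were Prkag1, Mark4 and Mark2, also named after their values were seen.

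Arid1a, on chromosome 4 from 133679008 to 133756769, had signals of 9.41 and 9.62 in duct cultures against 9.41, 9.42 and 9.01 in tumour cultures. PDAC replicates 1 and 2 lay at the lower normal ductal value and replicate 3 below all others. The difference was -0.24 (SE 0.18, 95% interval -0.74 to 0.27, limma adjusted p = 0.572). In PDAC replicate 3 Arid1a was 0.51 below the normal ductal mean, where the median of the nearest 30 genes was -0.12. Without PDAC replicate 3 the difference was -0.10, and without normal ductal replicate 2 it was -0.13.

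Smarca4, on chromosome 9 from 21616106 to 21704230, had signals of 10.06 and 10.24 in duct cultures against 10.08, 10.08 and 9.96 in tumour cultures, which overlapped. The difference was -0.11 (SE 0.09, 95% interval -0.37 to 0.15, limma adjusted p = 0.618). It was -0.20 without normal ductal replicate 1, -0.018 without normal ductal replicate 2, -0.067 without PDAC replicate 3 and -0.014 with arrays at a common median. Its relative Smarca2, the alternative ATPase of the same complexes, was at 8.27 and 8.13 in duct cultures against 8.91, 8.50 and 9.44 in tumour cultures (0.75, SE 0.32, adjusted p = 0.447). Within each array the difference of Smarca4 minus Smarca2 was 1.79 and 2.11 in duct cultures against 1.17, 1.58 and 0.52 in tumour cultures, a shift of -0.86 with groups that did not overlap. The exact permutation test over the 5 arrays gave p = 0.20 (two-sided, adjusted p = 0.40 over 4 pairs), where this design can give no p below 0.10.

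The other subunits of SWI/SNF complexes were few at the unadjusted threshold. Of 25 measured subunits, 0 were called, 3 higher and 0 lower reached an unadjusted p under 0.05, and 8 were higher and 1 lower without overlap, the median being 0.16, where genes whose mean exceeds the overall median had 0.05. The 3 are 12% of the list, against 20.1% of those genes. Groups did not overlap for 36% of the list, against 40.1% of those genes. Phf10, a subunit of the PBAF form, was at 9.06 and 9.29 in duct cultures against 9.94, 10.01 and 9.88 in tumour cultures (0.77, SE 0.11, limma adjusted p = 0.166). Smarcd3, known from heart and muscle development, had 0.86 (SE 0.20, adjusted p = 0.251), and Dpf1, known from the neuronal form, 0.40 (SE 0.14, adjusted p = 0.354). Arid1b, the alternative to Arid1a, was at 9.29 and 9.33 against 9.43, 9.33 and 9.25. The difference of Arid1a minus Arid1b within an array shifted by -0.26 (exact permutation p = 0.20, adjusted p = 0.40), by -0.17 without PDAC replicate 3 and by -0.17 without normal ductal replicate 2. Without PDAC replicate 3 the count of 3 subunits became 5.

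**Figure D4:**
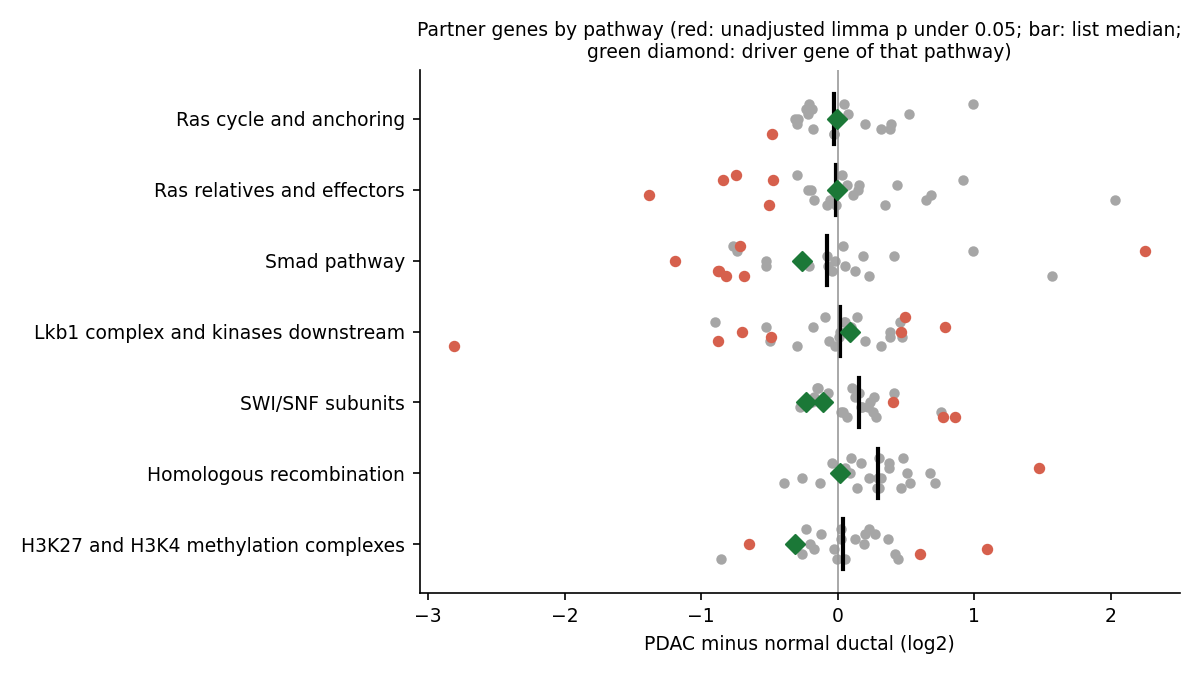
Difference between PDAC and normal ductal means in log2 units (x axis) for the measured genes of each pathway list (rows). Red points have an unadjusted limma p under 0.05, bars are list medians (from -0.08 to 0.30) and green diamonds are the driver genes, which lie between -0.31 and 0.09.

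Brca2, on chromosome 5 from 150522297 to 150570147, varied most among PDAC cultures. Its signal was 7.37 and 7.24 in duct cultures against 7.66, 7.69 and 6.60 in tumour cultures. PDAC replicates 1 and 2 lay above both normal ductal cultures and replicate 3 below them, so the difference in means was 0.01 (SE 0.41, 95% interval -1.14 to 1.16, limma adjusted p = 1). In replicate 3 Brca2 was 0.70 below the normal ductal mean, while the median of the nearest 30 genes was 0.05 and that of 655 genes of its chromosome 0.12. Without that replicate the difference was 0.37 (unadjusted p = 0.0211, limma adjusted p = 0.275). The 11 measured proliferation genes, with which Brca2 is usually expressed in S phase, had a mean of 10.51 in PDAC replicate 3, against 10.63 and 10.61 in the other tumour cultures. The duct cultures stood at 9.93 and 9.90.

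Genes of homologous recombination had the highest median of the 7 lists. Of 25 measured genes, 0 were called, 1 higher and 0 lower reached an unadjusted p under 0.05, and 8 were higher and 3 lower without overlap, the median being 0.30. The 1 gene is 4% of the list, against the same 20.1%. Groups did not overlap for 44% of the list, against 40.1% of genes with a mean above the median. The mean of the list stood at 7.89 and 7.71 in duct cultures against 8.09, 8.23 and 7.93. Rad51c, which also works in this repair pathway, was at 6.26 and 6.11 in duct cultures against 7.33, 7.68 and 7.97 in tumour cultures (1.47, SE 0.22, limma adjusted p = 0.173). Sem1, a small acidic protein that binds Brca2, had 0.32 (SE 0.13, adjusted p = 0.421) and Rad50, which tethers DNA ends, -0.26 (SE 0.10, adjusted p = 0.426). With arrays at a common median 6 genes of this list passed the unadjusted threshold, and with quantile normalization 3 did. The count was 4 without normal ductal replicate 1 or without PDAC replicate 3, and 2 without normal ductal replicate 2 or without PDAC replicate 1. Brca1 was at 8.004 and 7.57 in duct cultures against 8.01, 8.48 and 8.004 in tumour cultures. Its value in PDAC replicate 3 was tied with normal ductal replicate 1 (8.0038) and was the lowest of the tumour cultures. It did not lie below the duct cultures, as that of Brca2 did. The difference of Brca2 minus Brca1 within an array was -0.64 and -0.33 in duct cultures against -0.35, -0.79 and -1.40 in tumour cultures (shift -0.36, exact permutation p = 0.40, adjusted p = 0.53, and -0.09 without PDAC replicate 3).

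Kdm6a, on chromosome X from 18160862 to 18279936, had the largest difference of the drivers. Its signal was 9.14 and 9.10 in duct cultures against 8.68, 8.92 and 8.82 in tumour cultures. Every PDAC culture lay below both normal ductal cultures. The difference was -0.31 (SE 0.10, 95% interval -0.60 to -0.02), a ratio of 0.805, with an unadjusted p of 0.0397 and a limma adjusted p = 0.347. The unadjusted p ran from 0.0234 to 0.209 over 14 alternatives and was under 0.05 in 5 of them. With arrays at a common median the difference was -0.22.

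Kdm6a is known as an X-linked gene that escapes X inactivation, so other sex-linked genes were set beside it. Xist, the RNA of the inactive X chromosome, was at 10.55 and 10.46 in normal ductal cultures, 10.77 in PDAC replicate 1, 7.67 in replicate 2 and 3.71 in replicate 3. The Y-linked genes Uty, Kdm5d and Eif2s3y were at 5.15, 4.77 and 5.33 in PDAC replicate 3 and at most 3.10, 3.74 and 2.15 in the other arrays. The labels give no sex. The Y-linked signals of PDAC replicate 3 were the highest of the arrays but lay below 6.61, the median of the gene means. By these values PDAC replicate 3 may be male, and the duct cultures and PDAC replicate 1 may be female. PDAC replicate 2, with intermediate Xist and no raised Y-linked signal, was not assigned. The PDAC group may thus mix sexes, which was not tested. Kdm6a was lowest in PDAC replicate 1, where Xist was as high as in normal ductal cultures. The other escape genes did not take that order: Kdm5c was at 9.18, 9.01 and 8.78 in the PDAC replicates against 9.16 and 9.24, and Eif2s3x at 12.05, 11.89 and 11.36 against 11.81 and 11.76. Ddx3x was at 11.86, 11.87 and 11.60 against 11.71 and 11.79. The median of 283 X-linked genes lay above the normal ductal mean by 0.11, 0.29 and 0.22 in the PDAC replicates, in which Kdm6a lay below it by 0.44, 0.20 and 0.30. The part of X dosage in the Kdm6a values was not tested.

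**Figure D5:**
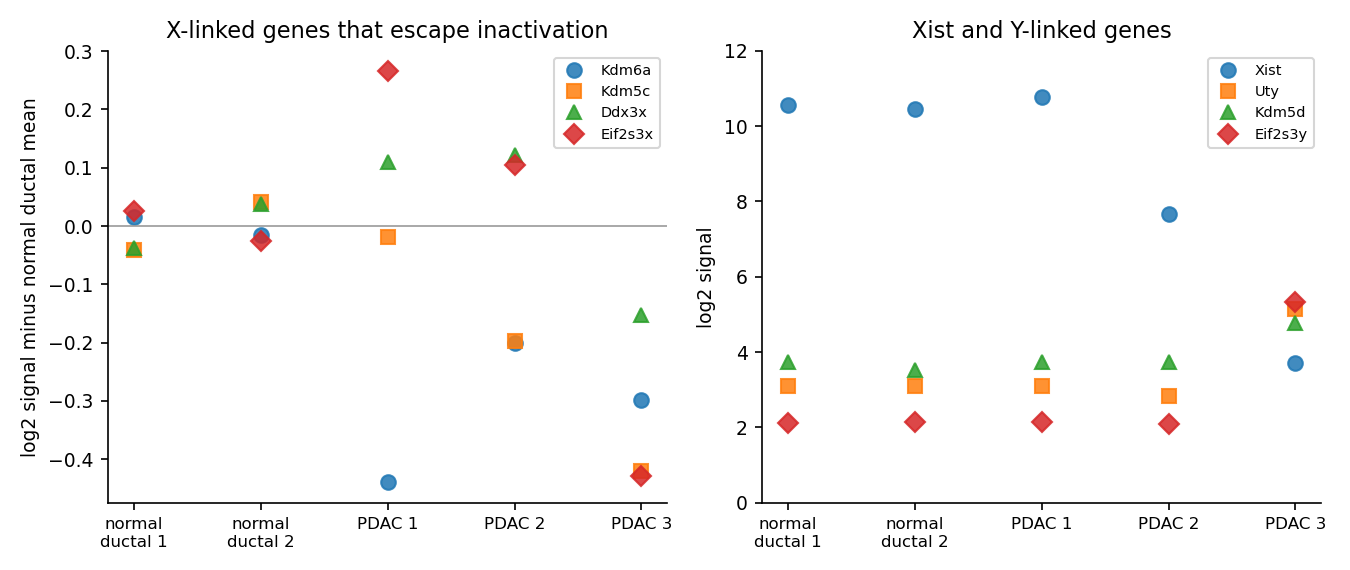
Left, log2 signal minus the normal ductal mean (y axis) of Kdm6a and other X-linked genes that escape inactivation in each culture (x axis). Right, log2 signal of Xist and of Y-linked genes; Kdm6a is lowest in PDAC 1, where Xist is at 10.77, while Xist is at 3.71 and the Y-linked genes are highest in PDAC 3.

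Of the histone methylation genes around Kdm6a, 22 were measured, among them subunits of the Kmt2 complexes in which Kdm6a works and of Polycomb complex PRC2, which writes the mark that Kdm6a removes. None was called (0 of 22), 2 higher and 1 lower reached an unadjusted p under 0.05, and 7 were higher and 5 lower without overlap, with a median of 0.04. The shares were 13.6% at that threshold and 54.5% without overlap, against 20.1% and 40.1% of genes with a mean above the median. Phf19, an accessory subunit of PRC2, was at 6.13 and 5.97 in duct cultures against 6.89, 7.28 and 7.26 in tumour cultures (1.09, SE 0.16, limma adjusted p = 0.170). Dpy30, a core subunit of Kmt2 complexes, had 0.61 (SE 0.13, adjusted p = 0.223), and Ezh1, an alternative PRC2 methyltransferase, -0.65 (SE 0.17, adjusted p = 0.281). The related demethylase gene Kdm6b was at 8.98 and 9.10 in duct cultures against 8.88, 8.74 and 8.79 in tumour cultures (-0.23, SE 0.09, adjusted p = 0.400). The difference of Kdm6a minus Kdm6b within an array shifted by -0.08 (exact permutation p = 0.80, adjusted p = 0.80), and by 0.02 without PDAC replicate 1. Without PDAC replicate 3 the count of 3 genes became 5.

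Over the 7 pathway lists, 167 genes were measured and 160 of them had a mean above the median of all genes. At an unadjusted p under 0.05, 10 were higher and 17 lower, 16.2% in all, where 20.1% of genes with a mean above the median passed. The groups did not overlap for 70 of the 167, or 41.9%, against 40.1%. These shares lie near the background.

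The genes whose pattern over the 5 arrays lay nearest to each driver were taken by the root mean square difference of log2 signals centred per gene, among 9968 genes. Brca2 had few close genes, with 17 within 0.1. Nearest were Twistnb, a subunit of RNA polymerase I, at a distance of 0.04, the membrane-shaping gene Bin1 (0.06) and Dus4l, a tRNA-modifying enzyme (0.06). For Kdm6a, 219 genes lay within 0.1, led by Ccdc9 (0.02), the sphingosine kinase gene Sphk2 (0.03) and Rnf40, a ubiquitin ligase for histones (0.03). For Nras, 196 did, led by Gga3 (0.03), Cdc14b (0.04) and Scap (0.04). Map7d1, Cyb561d1 and Chid1 were nearest to Smad4, Dnajc15, Iws1 and Prdx6-ps2 to Arid1a, Ncoa5, Zfp771 and Mrpl10 to Stk11, and Secisbp2, Pabpn1 and Zranb1 to Smarca4. Stk11 and Smarca4, which vary little, had 1007 and 577 genes within 0.1.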

How the data were processed

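The values were the log2 signals of 35556 probe sets on 5 arrays deposited by the authors, running from 0.727 to 13.9. Per the submitters' processing notes, Transcriptome Analysis Console 1.0.0.234 and the mm10 build were used. No source used here states the background correction, the normalization or the base of the logarithm; log2 was read from the values. A different base would scale every difference.

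Probe sets with 1 symbol (21789) were kept, and for each gene the one with the highest mean, which left 19938 genes. Coordinates came from RefSeq's GRCm38.p6 annotation, the assembly of mm10. All genes were fitted with limma 3.58.1 in R 4.3.3 (lmFit, eBayes with an intensity trend, both directions, residual degrees of freedom 3, prior 0.91), adjusted by Benjamini-Hochberg at a threshold of 0.05. On simulated data for this comparison (19938 genes, 10 runs), the calls recovered 14.4% of altered genes at a log2 change of 0.5, 28.8% at 1 and 61.4% at 2. Altered genes were drawn from all genes, of which 721 have no spread, so these shares do not describe genes with signals like the drivers. Among unaltered genes 6.15% had an unadjusted limma p under 0.05. Differences between related genes were tested by exact permutation over the arrays. Of 5 planned pairs, 4 could be measured. Chromosome medians, neighbours and distances are descriptions. Figures used Python 3.11.15 and matplotlib 3.10.9.

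The driver genes and lists were chosen by role, with earlier results of these data known. Named from each list are any called genes, otherwise the 3 with the smallest p, the relatives of the drivers, and the 3 genes nearest to each driver in pattern. Genes outside that rule are marked as such in the text, apart from markers, chromosome neighbours and sex-linked genes. Alternatives were other scalings, filters, variance models, probe set means, array weights, a block for the replicate number, and leaving out each array. Over all genes the deposited values had a median difference of 0.01, which quantile normalization put at 0.04 and a common array median at 0.10. Chromosome baselines on 1 normal ductal culture, the nearest 30 genes (the 10 adjacent ones are often near the floor), and background shares among genes above the median, were added after seeing the data.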

Additional observations from a re-analysis of the deposited data

How the results depend on the processing

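None of the 7 measured driver genes was called by limma under any of the 14 alternatives (adjusted p from 0.275 to 1). Smad4, Stk11, Arid1a, Smarca4 and Kdm6a kept their direction in all 14. Nras and Brca2, whose differences lie near 0, did not. The log2 difference of Nras was 0.088 with a common array median, 0.017 with array weights, 0.061 with the replicate block and between -0.17 and 0.093 with 1 culture left out. That of Brca2 lay between -0.17 and 0.37 with 1 culture left out.

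Over all genes the count called was 11 as reported, 42 after quantile normalization, 80 with a common array median, 42 without the lowest 50% of genes, 3 with array weights and 0 with the replicate block, where 2214 genes had an unadjusted p under 0.05 by limma. With 1 culture left out it ran from 0 (each PDAC replicate, with 1949 to 2751 genes at an unadjusted p under 0.05) to 1287 (normal ductal replicate 1), with 990 without normal ductal replicate 2, where the lone normal ductal culture is assumed to vary like the PDAC group. The cause was not tested. The count of pathway genes at an unadjusted p under 0.05 stayed within 1.5 times of 27 under all 14. The replicate numbers are not said to mark a shared source. Deviations from the group means correlated at -0.22 for number 1 and -0.07 for number 2 across genes. With 2 normal ductal cultures their deviations mirror each other, so the unmatched pairs gave 0.07 and 0.22. The correlations are therefore not separate checks of pairing. Number 3 occurs only in PDAC, so the block took its estimates from the cultures numbered 1 and 2 alone. They equal those without PDAC replicate 3 (Nras 0.061 and Smad4 -0.17 in both settings). The block called no driver gene, but it leaves too few degrees of freedom to judge pairing.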

Other observations

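Of 27 measured genes that are altered in human PDAC beside the driver genes above, 0 were called by limma over all genes, 1 was higher and 4 were lower at an unadjusted p under 0.05, and the median log2 difference was -0.13. These 5 are 18.5% of the list, against 13.4% of all genes and 20.1% of genes with a mean above the median. Rbm10, an X-linked splicing factor, was at 8.18 and 8.20 in normal ductal cultures against 8.73, 8.86 and 8.82 in the PDAC cultures (0.61, SE 0.08, limma adjusted p = 0.165). Its groups stood apart in the direction opposite to that of Kdm6a on the same chromosome. Rreb1, a zinc finger factor that responds to Ras signals, was at 8.78 and 8.89 against 8.08, 8.31 and 8.16 (-0.66, SE 0.11, adjusted p = 0.187). The other 3 lower genes, Tgif1, Acvr1b and Tgfbr1, belong to the Smad pathway.

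Several of these genes took a value in 1 PDAC culture that the others did not share, and they were named after their values were seen. Rnf43, a ubiquitin ligase that removes Wnt receptors, was at 8.46 in PDAC replicate 3 and between 5.79 and 6.69 elsewhere. Gata6, a factor of the classical PDAC subtype, was at 7.65 in PDAC replicate 1 and between 9.34 and 9.54 elsewhere. Its deposited value was tied at 9.3418 in both normal ductal cultures and PDAC replicate 3. Kmt2d, a histone methyltransferase that works with Kdm6a, was at 8.45 in PDAC replicate 3 and between 9.18 and 9.37 elsewhere. Myc was at 10.48 in PDAC replicate 3 and between 11.35 and 11.84 elsewhere, with normal ductal replicate 1 and PDAC replicate 2 tied at 11.3804.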
